A study of Mus musculus with 6 samples.

Results

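Polycomb repressive complexes are groups of chromatin proteins that keep developmental genes silent in embryonic stem cells (ESCs). PRC2 methylates histone H3 through its catalytic subunits *Ezh1* and *Ezh2*, and PRC1 places ubiquitin on histone H2A through *Ring1* and *Rnf2*. A further complex, PR-DUB, removes that ubiquitin through *Bap1*. Canonical PRC1 binds the mark of PRC2 through a CBX subunit and contains PHC proteins. Variant PRC1 carries *Rybp* or *Yaf2* instead and can reach unmethylated CpG islands through *Kdm2b*.

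The components examined were a named list of 34 genes, all 34 of which had at least 1 probe set, out of 15364 genes that could be named. They comprised 20 genes of PRC1, 11 of PRC2 and 3 of PR-DUB. A probe set, the unit of the array, is a group of short oligonucleotides whose brightness reflects the abundance of a transcript. For a gene with several probe sets, the one with the highest mean over all arrays stood for the gene, and the 34 genes had 81 probe sets together.

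The arrays compared wild-type (WT) mouse ESCs with Alkbh1-/- mouse ESCs, both of strain C57BL/6, at passage 8 and at day 0, that is undifferentiated and untreated. There were 3 arrays of each genotype. The cells came from littermate embryos of heterozygous parents and were grown with leukemia inhibitory factor on irradiated feeder fibroblasts. The sample descriptions give the arrays of a genotype 1 shared name followed by a running number. Genotype and cell line therefore cannot be told apart, and nothing says whether the 3 arrays came from separate cultures. Of the deposited values, 2 kinds of mean were used, the mean log2 value over all 6 arrays for 33142 probe sets, and the geometric mean of the intensity in each genotype for the 4326 entries of a class comparison. Only these means were analysed, not the 6 arrays one by one, so that no spread and no test can be given for any difference below.

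The genotype means exist only for probe sets that the class comparison lists. According to the header, 7320 probe sets met a filter, and the list holds those of them whose nominal p was under 0.05. A listed probe set was therefore selected for a difference, and the sizes below are a description of selected values. A probe set without genotype means may have missed either condition, so that these means allow no statement on its difference. The authors' own comparison, deposited beside these means, was not used. Of all probe sets, 4261 (12.9%) had genotype means, and the smallest fold among them was 1.29.

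As a check of the labels, the targeted gene *Alkbh1* had a mean intensity of 761 in WT and 25.7 in Alkbh1-/- mESCs at its brightest probe set, 1434660_at, a log2 difference of −4.89. All 10 markers fixed for ESCs had a probe set, with mean log2 values over all arrays between 10.05 and 14.49. Of these 10, 4 had genotype means at the brightest probe set, with log2 differences of 1.10 for *Nanog*, 0.55 for *Esrrb*, 0.41 for *Zfp42* and −0.49 for *Utf1*. The summed intensity of these 4 alone was 8203 in WT and 13378 in Alkbh1-/- mESCs, of which *Nanog* made up 3852 and 8267. Of 5 neuroectoderm markers, 1 had genotype means at the brightest probe set, *Neurod1* at −1.41, and of 6 primitive endoderm markers 2 had them, *Sox7* at 0.88 and *Dab2* at −0.92. *Sox1*, also a neuroectoderm marker, went the other way at its dimmer probe set 1438729_at. Its means there were low, 9.92 in WT and 23.95 in Alkbh1-/- mESCs, a log2 difference of 1.27. Of 12 fibroblast markers, which feeder cells express, 3 had genotype means at the brightest probe set. These 3, *Col1a1*, *Col3a1* and *Thy1*, were lower in Alkbh1-/- mESCs, with log2 differences between −1.06 and −0.52 and a summed intensity of 2652 in WT and 1426 in Alkbh1-/- mESCs. In cultures measured as a whole, fewer cells of a type and less RNA per cell cannot be told apart. The Y-linked *Eif2s3y* differed by −5.65 on the log2 scale. Of 933 X-linked probe sets, 504 (54%) had genotype means, 474 of them higher and 30 lower in Alkbh1-/- mESCs. The arrays of the genotypes thus also differed in X- and Y-linked signal, which in this design cannot be told apart from genotype. The part of the markers of these cell types and of the sex chromosomes in the differences below was not tested.

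Among the 34 Polycomb genes, *Bmi1* was more than 1.5-fold higher and *Phc1* more than 1.5-fold lower in the mean of Alkbh1-/- mESCs than in that of WT mESCs. Both belong to canonical PRC1. *Suz12*, a core subunit of PRC2, was higher at 4 of its 6 probe sets, but the brightest one had no genotype means. For the other 31 genes, no probe set had genotype means.

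Counted by brightest probe set, 2 of the 34 genes had genotype means, beside 2276 of the 15364 named genes (14.8%). *Bmi1* was the 1 member over 1.5-fold higher, where 4.67% of all named genes had genotype means that far higher. *Phc1* was the 1 member over 1.5-fold lower, where 4.97% of all named genes had genotype means that far lower. In these shares, genes without genotype means counted as not past the ratio. These counts of members are too small to be read against the background, which was also not matched for brightness. The brightest probe sets of the members had a median mean log2 value of 9.09. Over every probe set, dimmer ones of each gene included, the median was 6.31, and 31 of the 34 members were at or above it. Split by complex, the brightest probe sets of PRC1 held 1 gene higher and 1 lower among 20, and those of PRC2 and PR-DUB held 0 with genotype means among 11 and 3. With all probe sets considered, 3 of 38 probe sets of PRC1 and 4 of 33 of PRC2 had genotype means, the latter all of *Suz12*. Of all probe sets on the array table, 12.9% had them. Whether PRC1 and PRC2 differed in their response cannot be tested from these means.

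*Bmi1* (also *Pcgf4*) encodes one of the PCGF subunits that define a PRC1 assembly and is best known for the repression of the *Cdkn2a* locus. At probe set 1417493_at, the brighter of its pair, the authors' mean intensity was 121 in WT and 296 in Alkbh1-/- mESCs. The ratio of these means was 2.43, a log2 difference of 1.28. At the other probe set, 1448733_at, the means were 33.95 and 95.98, a ratio of 2.83 and a log2 difference of 1.499. Both probe sets of the gene thus had the higher mean in Alkbh1-/- mESCs. *Pcgf2*, which encodes the alternative PCGF subunit of canonical PRC1, had no genotype means at either of its 2 probe sets.

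*Phc1*, one of the polyhomeotic genes whose products polymerize and compact Polycomb chromatin, was measured by 1 probe set, 1423212_at. Its mean intensity was 5377 in WT and 3365 in Alkbh1-/- mESCs. Alkbh1-/- mESCs thus had 0.626 of the WT mean, a log2 difference of −0.68. It was the only member with a lower mean in Alkbh1-/- mESCs among those with genotype means. The related *Phc2* and *Phc3* had no genotype means.

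*Suz12*, which holds the catalytic subunit and *Eed* together in PRC2, had the most values of any member. At 1427253_s_at the mean intensity was 1783 in WT and 2711 in Alkbh1-/- mESCs, a ratio of 1.52. At 1452364_at it was 1214 and 1923, a ratio of 1.58. The deposited annotation names these 2 probe sets for the same source sequence, and they are not independent measurements.

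A further probe set of *Suz12*, 1449661_at, had mean intensities of 247 and 350, a ratio of 1.41. At 1420022_s_at they were 199.8 and 315, a ratio of 1.58. On the log2 scale the 4 differences lay between 0.50 and 0.66, and 3 of them exceeded a 1.5-fold ratio. The remaining probe sets, 1420021_s_at and 1420020_at, were annotated to the same source sequence as 1420022_s_at and had no genotype means. A probe set whose name ends in s_at can match more than 1 transcript.

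**Figure D1:**
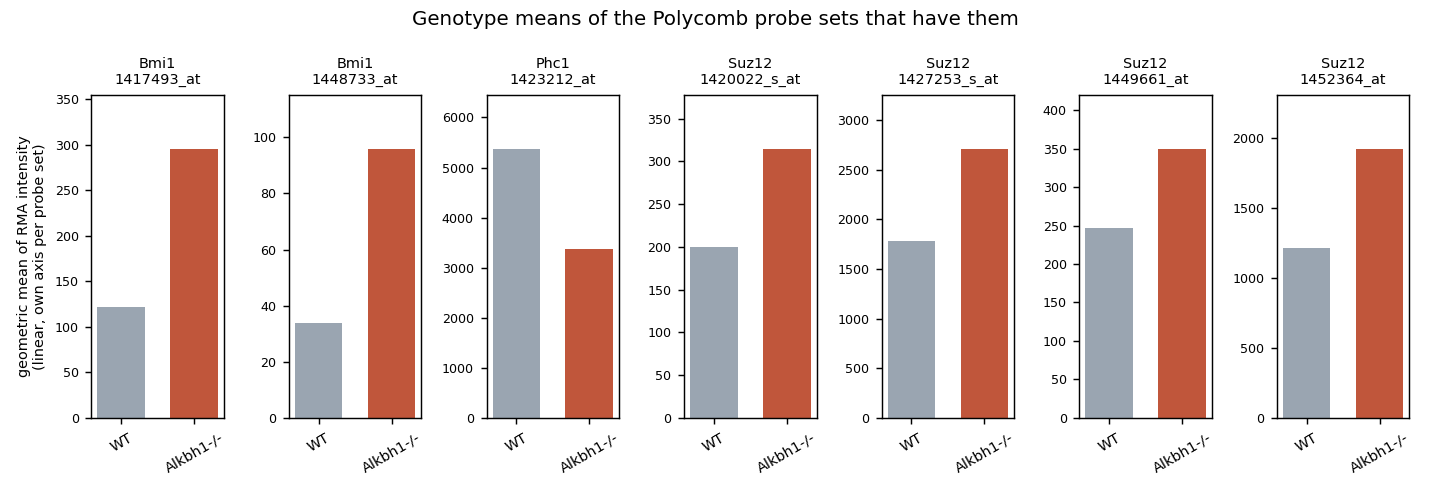
Geometric mean of the normalized intensity (linear scale from 0, a separate axis for each probe set) in WT and Alkbh1-/- mESCs for the 7 Polycomb probe sets with genotype means; each bar is the authors' mean, without an error since only means were analysed. The bars of Bmi1 (ratios of 2.43 and 2.83) and Suz12 (ratios of 1.41 to 1.58) are taller in Alkbh1-/- mESCs, and that of Phc1 is shorter (0.626 of WT).

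The place of these values among all listed differences was then examined. Since the smallest listed log2 difference was 0.37 in size, no listed difference lies near 0. The *Suz12* values and that of *Phc1* fell in the dense inner part of the listed differences, whereas both *Bmi1* values lay farther out. Of all joined probe sets, 2196 were higher and 2065 lower in Alkbh1-/- mESCs.

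**Figure D2:**
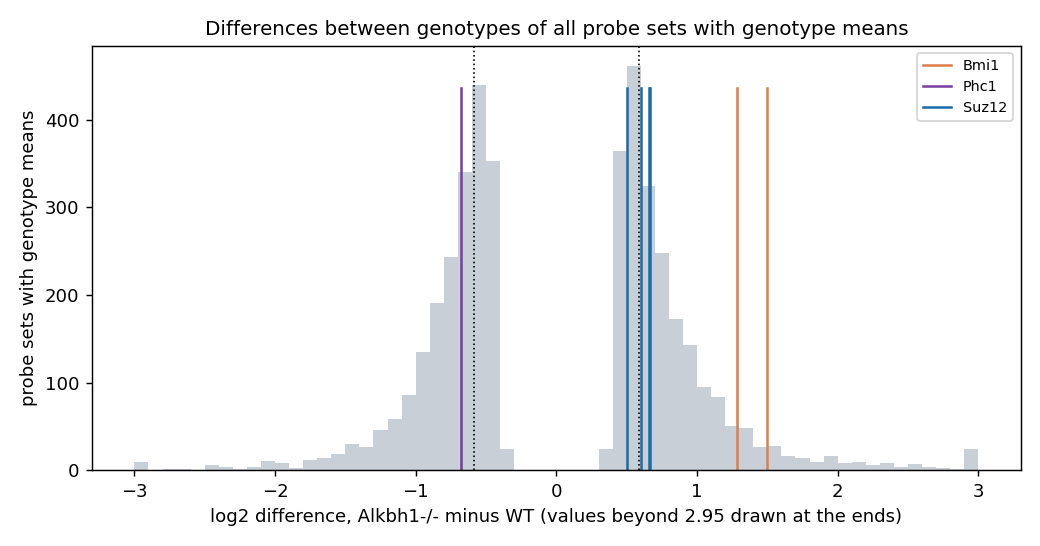
Histogram of the log2 difference between the genotype means (Alkbh1-/- minus WT, x axis) over the 4261 probe sets with genotype means (number of probe sets, y axis), with solid lines at the 7 Polycomb probe sets and dotted lines at a 1.5-fold ratio in either direction. The gap around 0 comes from the listing, whose smallest log2 difference is 0.37 in size; Bmi1 lies at 1.28 and 1.499, Suz12 between 0.50 and 0.66, and Phc1 at −0.68.

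A pair of members, *Rbbp7* and *Bcor*, are X-linked. *Rbbp7* encodes a histone-binding subunit of PRC2 that is shared with other complexes, and *Bcor* a scaffold of variant PRC1. Their 5 probe sets had no genotype means, where 54% of all X-linked probe sets had them. A further 2 X-linked probe sets carry the symbol or an older alias of *Rbbp7* but the gene identifier of *Txlng*, its neighbor on the chromosome, and were therefore not counted for *Rbbp7*. At 1434681_at, the mean intensity was 245 in WT and 514 in Alkbh1-/- mESCs, a ratio of 2.10. At 1439131_at, it was 581 and 997, a ratio of 1.72. Which of the genes these probe sets measure could not be settled from the annotation, in which the brightest *Rbbp7* probe set, 1415775_at, had a mean log2 value of 13.09 over all arrays and no genotype means.

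For the members without genotype means, the mean log2 value over the 6 arrays of both genotypes is the only value used here. Brightness depends on the oligonucleotides as well as on the transcript. The values and ranges below therefore do not rank the genes by transcript level. Within the PRC2 core of 6 genes, values at the brightest probe sets ranged from 7.65 to 13.09. The catalytic subunits *Ezh2* and *Ezh1* were at 11.44 and 7.65. *Eed*, which binds the methylated histone, was at 12.06, and *Rbbp4*, a histone-binding subunit, at 12.84.

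The accessory subunits of PRC2, which steer the complex to its targets, ranged from 5.77 to 12.08 over 5 genes. *Jarid2* and *Aebp2*, which occur together in one form of PRC2, were at 12.08 and 9.92. Of the Polycomb-like proteins of the other form, *Mtf2* was at 11.88, *Phf1* at 6.07 and *Phf19* at 5.77. *Mtf2* shared with *Suz12* the largest number of probe sets of any member, 6, and none of those of *Mtf2* had genotype means.

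The catalytic PRC1 subunits *Rnf2* and *Ring1* were at 10.79 and 6.49. The 10 genes of canonical PRC1 ranged from 5.12 to 12.05. Among its CBX subunits, which read the methyl mark, *Cbx7* was at 9.66, *Cbx6* at 8.40, *Cbx2* at 7.06 and *Cbx8* at 5.12. *Scmh1*, a PRC1-associated protein, was at 7.31, *Phc2* at 7.88, *Phc3* at 7.16 and *Pcgf2* at 6.52. In variant PRC1, 8 genes ranged from 6.74 to 11.86, with *Rybp* at 11.86, *Kdm2b* at 9.92, *Pcgf6* at 11.12 and *Pcgf1* at 6.74. In the same group, *Pcgf3* was at 9.20, *Pcgf5* at 8.98, *Yaf2* at 8.24 and *Bcor* at 8.07. The 3 genes of PR-DUB, *Bap1* and its partners *Asxl1* and *Asxl2*, were at 9.99, 9.48 and 8.61.

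**Figure D3:**
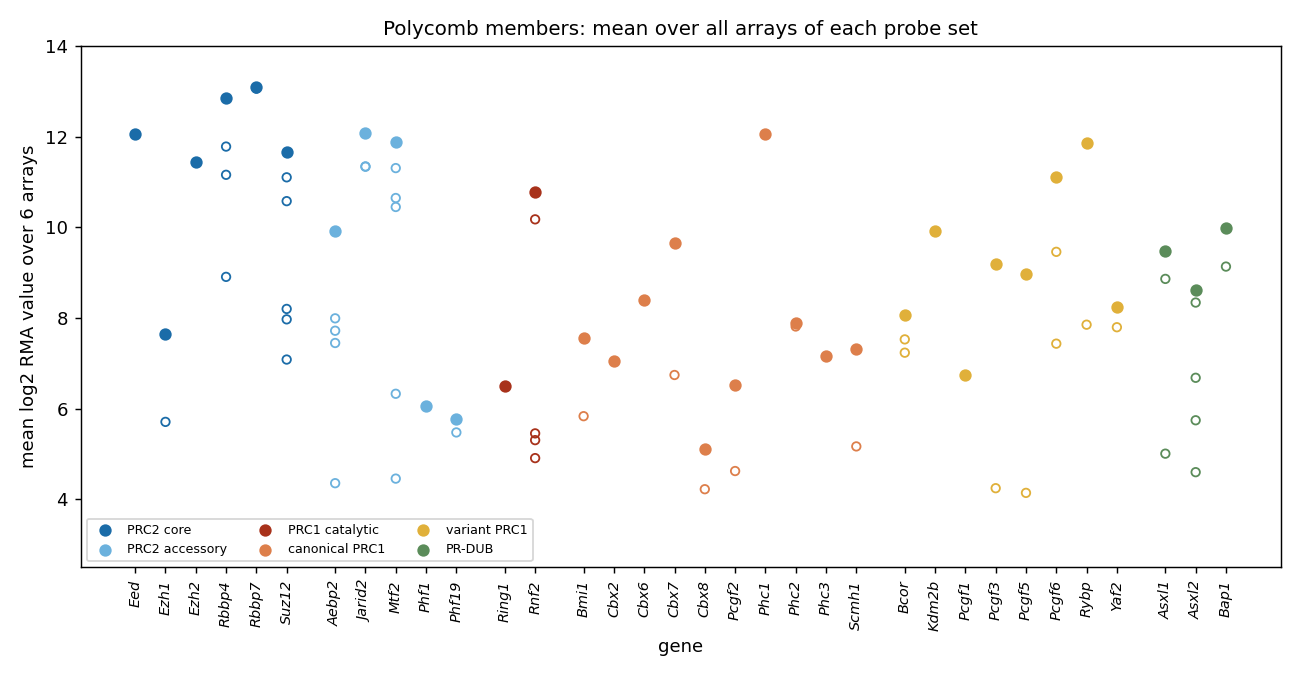
Mean log2 value over all 6 arrays (y axis) of the 81 probe sets of the 34 Polycomb genes (x axis), colored by complex; filled points are the brightest probe set of a gene and open points its other probe sets. Values of several probe sets of 1 gene spread widely, as for Mtf2 and Suz12 with 6 probe sets each, and heights of different probe sets are not comparable as transcript levels.

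Other genes linked to these complexes were examined as a list of 29, of which 27 had a probe set. By brightest probe set, 4 of the 27 had genotype means, 3 of them over 1.5-fold higher and 0 over 1.5-fold lower in Alkbh1-/- mESCs. Among all named genes, 14.8% had genotype means, 4.67% had means over 1.5-fold higher and 4.97% had means over 1.5-fold lower. The share of the list with genotype means was that of this background, which was not matched for brightness. *Epop*, an ESC-enriched partner of PRC2, had mean intensities of 248 in WT and 555 in Alkbh1-/- mESCs at 1426980_s_at, a ratio of 2.24.

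The other two genes over 1.5-fold were X-linked. *Kdm6a*, a demethylase that removes the PRC2 mark, had means of 619 in WT and 1037 in Alkbh1-/- mESCs at 1427672_a_at, a ratio of 1.67. Its dimmer probe sets 1427235_at and 1445198_at had ratios of 2.12 and 2.17, and a further one had no genotype means. *Ogt*, an O-GlcNAc transferase that acts with PR-DUB, had means of 1602 and 2484 at 1460631_at, a ratio of 1.55. All 5 probe sets of *Ogt* had genotype means, with ratios between 1.55 and 1.93, and both genes lie on the chromosome where 474 of 504 listed probe sets were higher. Without the X-linked genes, *Epop* was the 1 gene of the list over 1.5-fold.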

How the data were processed

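Arrays (Affymetrix GeneChips) of 3 WT and 3 Alkbh1-/- mESC samples were normalized together by the authors with the robust microarray analysis algorithm (RMA). In 1 table, the authors deposited for 33142 probe sets a mean log2 value over all arrays. In the class comparison, which a service company ran, geometric means of intensity per genotype were deposited for 4326 entries, on a linear scale; the accompanying note states that its wild-type class is mislabelled. Both tables also hold the authors' own comparison (log2 fold changes, moderated statistics, p-values, odds), which was not used. The planned design was a limma fit on single arrays or, with means alone, a ratio of means without a test; the latter applied.

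In the class comparison, values and identifiers stand in different orders. The mean of both log2 genotype means was therefore matched to the mean over all arrays within 5e-07, which joined 4261 entries, 8 of them to the identifier beside them. Of the joined probe sets, 4258 occur somewhere in the identifier column, which also holds all 7 member probe sets. For 18 entries, 2 probe sets lay within the tolerance and the nearest was taken. For the entries of members, the next probe set lay at least 1.78e-05 away. On simulated means for 4326 entries, 100.0% were recovered. The simulated means were drawn from the means over all arrays, so that each had a partner, whereas 65 real entries found none. The simulation therefore tests only the matching step.

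Probe sets were named through gene identifiers, accessions, then symbols and unique aliases of RefSeq (GRCm38.p6), which named 28216 (85.1%). Of the 81 member probe sets, 79 were named by gene identifier and 2 by alias. Differences are log2 ratios, Alkbh1-/- over WT, and were counted past a 1.5-fold ratio. The rule for named genes was all members, *Alkbh1*, and genes of the further list past that ratio; markers with genotype means, *Eif2s3y*, *Txlng* and the genes of the closing observations were named after their values were seen. A gene of the further list is not reported here. Members and lists were chosen with earlier results of these data known. Python 3.11.15, pandas 2.3.3, numpy 2.4.6 and matplotlib 3.10.9 were used. The number of arrays limits the precision.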

Additional observations from a re-analysis of the deposited data

How the results depend on the processing

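At the brightest probe set, 1 member was over 1.5-fold higher and 1 over 1.5-fold lower in Alkbh1-/- mESCs. Both counts held after centring. They also held with a threshold of 1.2-fold, with a filter on low means and without X- and Y-linked genes. Those settings could not change the counts, since only *Bmi1* and *Phc1* had a value there. Both genes are autosomal, had means above the filter and were already past the higher threshold. The mean over a gene's probe sets with a value gave 2 higher, since *Suz12* then passed. A count of every probe set gave 5 higher among 81. It counts probe sets and not genes, and all 5 were repeated probe sets of *Bmi1* and *Suz12*. The share of all probe sets past that ratio was not computed. With the X-linked probe sets of uncertain identity added, an alternative chosen after seeing the data, 7 probe sets were higher. At a 2-fold threshold 0 were lower. Taking values by the identifier printed beside them gave 2 higher and 0 lower. That join put *Phc1* at 0.60 instead of −0.68 on the log2 scale and turned 2 *Suz12* probe sets to −0.63 and −1.16. It also put the brightest probe set of *Alkbh1* at −1.22 instead of −4.89, its other probe set at 0.60 instead of −1.79, and *Eif2s3y* at 0.53 instead of −5.65. Centring on the median listed difference, 0.42, left *Bmi1* at 0.86, *Phc1* at −1.10 and *Suz12* between 0.08 and 0.24. That median falls at the edge of the gap that the listing leaves around 0.

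No paired analysis was possible because the tables hold means and no values of single arrays. For the same reason leaving out each array was not run.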

Other observations

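Several further genes of the list linked to Polycomb had genotype means only at a dimmer probe set or at less than a 1.5-fold ratio, and are named here after their values were seen. *Wdr5*, a subunit shared by variant PRC1 and activating complexes, had a mean intensity of 797 in WT and 1151 in Alkbh1-/- mESCs at 1448389_at, a ratio of 1.44. *Fbrsl1* had means of 57.82 and 86.55 at 1458511_at, just under a 1.5-fold ratio. *Mga*, a DNA-binding partner of variant PRC1 with *Pcgf6*, was lower at 1431232_a_at, with means of 765 and 541. *Auts2*, a partner of PRC1 with *Pcgf3* or *Pcgf5*, was lower at 1452379_at, with means of 95.21 and 66.50. *Asxl3* was dim and lower at both of its probe sets, with log2 differences of −0.42 and −0.46. For *Wdr5*, *Fbrsl1*, *Mga* and *Auts2*, the brightest probe set had no genotype means. The means used therefore allow no statement on a difference of the whole gene.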
